A study of Rattus norvegicus with 10 samples.

Results

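Scar-associated macrophages are liver macrophages that gather along fibrous septa, and 10 genes used to mark them or macrophages in general were followed here in rat liver. The set was Trem2, Gpnmb, Lgals3, Cd68, Cd9, Aif1, Tyrobp, Lyz2, Fcgr2a and Pla2g7, and its members were found by matching the RefSeq accession of each array probe to a rat gene symbol. Each of the 10 genes had 1 probe, among 13832 named genes on the array. Of the 10, 9 passed a filter that kept genes detected, that is, well above local background, on 5 or more of the 10 arrays, as did 6849 genes in all. Cd9 did not pass. Only 5 members, Tyrobp, Cd68, Aif1, Lyz2 and Lgals3, were above background on all 10 arrays, so only these were measured in both groups. Trem2, Gpnmb, Fcgr2a and Pla2g7 were detected in all 5 treated rats and in 0 of 5 controls, so they passed only through the group in which they were high.

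Livers came from 10 male Wistar rats, with 1 Agilent whole-genome array per rat. The 5 controls were given vehicle alone. The other 5, called DEN/TAA, had an intraperitoneal dose of the carcinogen diethylnitrosamine (DEN, 200 mg/kg) when 6 weeks old. The hepatotoxin thioacetamide (TAA, 200 mg/kg, intraperitoneal) followed from 2 weeks later, given in blocks of 3 weeks separated by 1 week of rest, for a stated 23 weeks. The series presents the protocol as a rat model of liver cancer arising with cirrhosis. Every rat is labelled as 23 weeks old, which is younger than 23 weeks of treatment begun at 6 weeks of age would make them, so the length of exposure is uncertain. Whole liver was profiled, without sorting of cells and without a label saying whether tumour or surrounding tissue was taken. In such bulk RNA, more macrophages and more RNA per macrophage cannot be told apart.

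Macrophages of the injured liver come from resident Kupffer cells and from blood monocytes. TREM2 is a receptor for lipids and cell debris that has no signalling tail of its own and signals through the adaptor DAP12, the product of Tyrobp. In human cirrhosis and in rodent fibrosis, macrophages with TREM2, CD9 and GPNMB were described in scar tissue, where lipid uptake, lysosomal enzymes and galectin-3 are among their features. The set as a whole is not restricted to these cells: Cd68, Aif1, Tyrobp and Lyz2 are also made by Kupffer cells or other myeloid cells, and Lgals3 and Cd9 by epithelial cells and fibroblasts as well.

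Promoter windows were available for 7 of the 10 members in a RefSeq-based table on the rat build GRCr8, and 4 are shown because these genes were undetected in control and high in DEN/TAA (Trem2, Gpnmb, Pla2g7) or served as the reference member (Cd68). Each runs 5′ to 3′ on the strand of its gene, from 250 bases before the start site used in that table to 20 bases after it. The Trem2 window is chr9:20151760-20152029 (minus strand), the Gpnmb window chr4:79340878-79341147 (plus strand), the Pla2g7 window chr9:24901728-24901997 (minus strand) and the Cd68 window chr10:54882422-54882691 (minus strand). Capitals mark matches to GAGGAAG, a PU.1-like motif of myeloid promoters, and to TGANTCA, an AP-1 motif, on either strand.
Trem2: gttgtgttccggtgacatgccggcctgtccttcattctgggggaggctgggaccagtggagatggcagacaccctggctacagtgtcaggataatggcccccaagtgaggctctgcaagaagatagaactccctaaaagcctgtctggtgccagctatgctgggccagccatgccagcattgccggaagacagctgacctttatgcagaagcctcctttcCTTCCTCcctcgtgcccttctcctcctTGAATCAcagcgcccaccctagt
Gpnmb: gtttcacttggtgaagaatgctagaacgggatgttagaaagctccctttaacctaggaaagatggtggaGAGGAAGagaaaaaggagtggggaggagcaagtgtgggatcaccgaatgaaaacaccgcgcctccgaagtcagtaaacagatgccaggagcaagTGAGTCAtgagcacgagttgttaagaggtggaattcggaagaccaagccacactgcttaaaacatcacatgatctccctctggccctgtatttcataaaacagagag
Pla2g7: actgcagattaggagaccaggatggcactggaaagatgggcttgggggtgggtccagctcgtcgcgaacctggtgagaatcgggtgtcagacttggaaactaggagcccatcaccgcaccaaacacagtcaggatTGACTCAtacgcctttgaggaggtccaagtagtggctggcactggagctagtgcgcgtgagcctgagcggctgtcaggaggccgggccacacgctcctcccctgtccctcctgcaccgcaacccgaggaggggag
Cd68: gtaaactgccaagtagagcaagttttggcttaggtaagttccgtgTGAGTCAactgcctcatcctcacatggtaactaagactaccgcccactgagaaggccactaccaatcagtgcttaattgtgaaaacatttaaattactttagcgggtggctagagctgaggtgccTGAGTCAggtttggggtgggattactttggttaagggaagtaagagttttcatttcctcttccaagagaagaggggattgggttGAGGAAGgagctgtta

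Over the full windows of 300 bases, the PU.1-like motif was found in 5 of the 8 windows of these 7 members (Trem2, Gpnmb, Cd68, Cd9 and 1 of the 2 of Fcgr2a), against 12.4% of the 33469 promoter windows in the table. The AP-1 motif was also found in 5 of 8 (Trem2, Gpnmb, Cd68, Pla2g7 and the other of Fcgr2a), against 7.33% of all windows. Cd68 held 2 AP-1 matches, starting at -205 and -80, both reading TGAGTCA, the same letters as the match at -87 in Gpnmb. In Pla2g7 the AP-1 match lay at -115 and read TGACTCA, and in Trem2 it spanned the start site and read TGAATCA. No member window held CACGTG, the E-box read by MITF and TFE factors, which 6.42% of all windows held. Lyz2 held none of the 3 motifs in its window. These matches describe letters and not binding.

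Signal is given as scaled log2 signal, the log2 of the background-subtracted intensity minus the array's 75th percentile over the 6229 probes above background on every array. A value of 0 is thus the level of a bright probe on that array, and each step of 1 is a doubling. Control arrays were dimmer, with 16.5% to 32.9% of spots above background against 36.1% to 46.6% in DEN/TAA. Control replicate 5 was the dimmest. Differences are DEN/TAA minus control and were tested with limma over all 6849 genes, with Benjamini-Hochberg adjustment and a threshold of 0.05. Under this test 39.2% of all genes tested were higher in DEN/TAA and 16.3% lower, and for 28.1% every DEN/TAA value lay above every control value. Among the 3557 genes above background on all arrays, 30.4% were higher, 25.2% were lower, and 22.9% were higher without overlap between the groups. Detection in every DEN/TAA rat and in no control, the pattern of Trem2, Gpnmb, Fcgr2a and Pla2g7, was shared by 9.96% of the genes tested.

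All 5 members measured on every array rose in DEN/TAA, each without overlap between the groups, and they ranked between 9 and 116 by difference among those 3557 genes. Lgals3 rose most, by 12.6-fold, followed by Lyz2 (5.32-fold), Tyrobp (5.12-fold), Cd68 (3.88-fold) and Aif1 (3.13-fold). The median difference of these 3557 genes was 0.10 on the log2 scale. The other 4 members that were tested rose from a control signal that could not be told from background: Pla2g7 was at least 28.7-fold, Gpnmb at least 17.4-fold, Trem2 at least 5.33-fold and Fcgr2a at least 3.31-fold higher. A bound of this kind sets the DEN/TAA mean against a floor. The floor is, for each control array, the higher of the probe's own signal and the lowest signal of any probe above background. Bounds here and below hold only for this scaling and background subtraction. With normexp, another background correction, and in the authors' table of log2 values, the measured differences of Trem2, Gpnmb, Fcgr2a and Pla2g7 were smaller than these bounds.

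**Figure D1:**
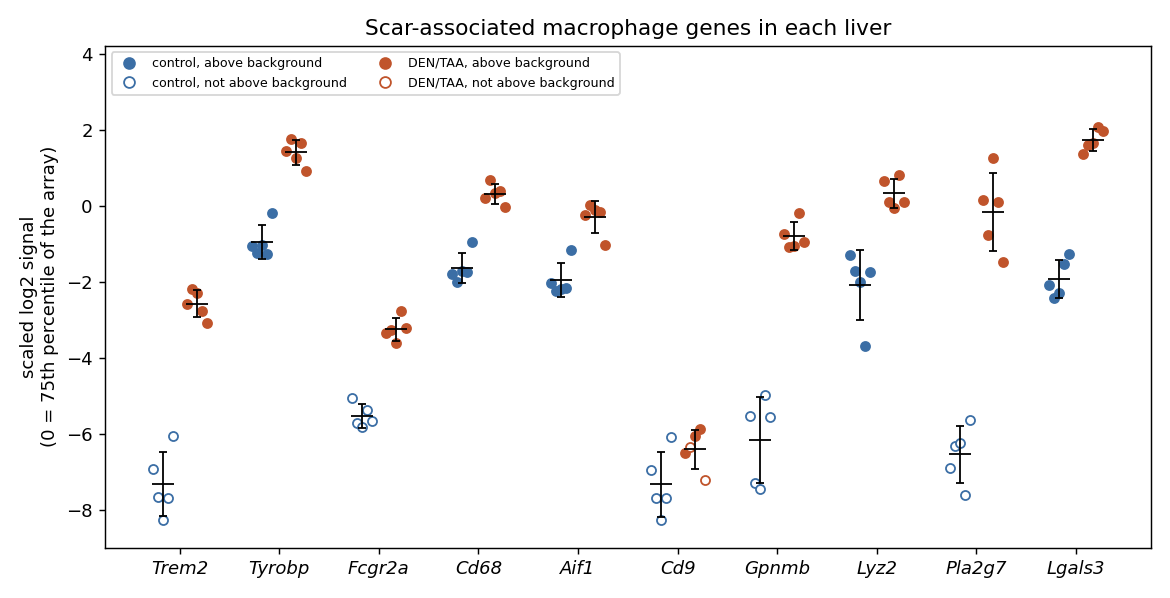
Scaled log2 signal (vertical axis, 0 is the array's 75th percentile) of the 10 genes (horizontal axis) in 5 control and 5 DEN/TAA rats, 1 point per rat, with group mean and SD as bars. Open points are not above background. The 5 genes with filled points in both groups show no overlap, Aif1 has the narrowest gap (0.14), and Cd9 is the only gene whose groups overlap.

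Among the receptors and their adaptor, Trem2 was not detected in control liver and was detected in every treated rat. Its scaled signals were -6.92, -7.66, -8.27, -7.68 and -6.07 in control replicates 1 to 5, none above background. In DEN/TAA replicates 1 to 5 they were -2.59, -2.20, -2.30, -2.76 and -3.08. The DEN/TAA rats thus lay within 0.88 of each other, and the lowest of them was 2.99 above the highest control value. The measured difference was 4.74 (SE 0.36, n = 5 each, limma adjusted p = 1.79e-06), but the control values are background. In this scaling the bound of 5.33-fold is the more cautious figure, and in the authors' table the log2 difference was 1.69. On the intensity scale the treated probe read 1097, 878, 768, 679 and 731 units, against 7.5 to 14.6 in controls.

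Tyrobp, which encodes the signalling partner of TREM2 and of several other myeloid receptors, was detected in every rat. Control replicates 1 to 5 gave -1.06, -1.25, -1.04, -1.26 and -0.19, and DEN/TAA replicates 1 to 5 gave 1.42, 1.75, 1.25, 1.65 and 0.91. Control replicate 5 stood above the other controls, and DEN/TAA replicate 5 was the lowest treated rat, still above it. The rise was 2.36 (SE 0.24, limma adjusted p = 1.08e-05). After scaling, Trem2, Tyrobp, Cd68 and Aif1 had the same highest and lowest treated rats, DEN/TAA replicates 2 and 5. That order depends on the scaling. In unscaled intensity DEN/TAA replicate 1 was highest for each of them. The lowest was then replicate 3 for Cd68 and Tyrobp, replicate 4 for Trem2 and replicate 5 for Aif1.

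Fcgr2a encodes a low-affinity receptor for immunoglobulin G, and RefSeq lists older names of Fc gamma receptor III under the same rat symbol. Its scaled signals were -5.06, -5.72, -5.82, -5.38 and -5.68 in control replicates 1 to 5, none above background, and -3.35, -3.29, -3.61, -2.78 and -3.22 in DEN/TAA replicates 1 to 5. The SD was 0.30 in DEN/TAA and 0.31 in control, where it is that of undetected signal. The lowest treated rat lay 1.45 above the highest control value, which is background. The measured difference of 2.28 (SE 0.20, limma adjusted p = 3.76e-06) is likewise taken against background signal. In this scaling the bound of at least 3.31-fold is the more cautious figure. With normexp, another background correction, the measured difference was 0.71 and did not pass (limma adjusted p = 0.0805). The low-affinity Fc receptors are related in sequence, so how much of this probe's signal belongs to Fcgr2a alone is uncertain.

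Of the general macrophage markers, Cd68, a glycoprotein of lysosomes and endosomes, gave -1.80, -2.0, -1.72, -1.75 and -0.96 in control replicates 1 to 5. DEN/TAA replicates 1 to 5 gave 0.19, 0.68, 0.32, 0.39 and -0.04, for a rise of 1.95 (SE 0.21, limma adjusted p = 1.93e-05). The treated rats spanned 0.72, and control replicate 5 was again above its group. Aif1, the calcium-binding protein known as IBA1, had the smallest rise of the members that passed the test, 1.65 (SE 0.25, limma adjusted p = 0.000231). Its signals were -2.02, -2.24, -2.19, -2.16 and -1.17 in control replicates 1 to 5 and -0.25, 0.03, -0.12, -0.16 and -1.04 in DEN/TAA replicates 1 to 5. The lowest treated rat, DEN/TAA replicate 5, and the highest control, replicate 5, were on the same slide and only 0.14 apart. The slide also carried control replicate 4, and within it Aif1 differed by 0.63, against 2.02 and 2.05 within the other two slides.

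Lyz2, the lysozyme of macrophages and granulocytes, was the most variable of the 5 in control liver (SD 0.93). Control replicates 1 to 5 gave -1.30, -1.73, -2.0, -3.68 and -1.75, with replicate 4 far below the rest, and DEN/TAA replicates 1 to 5 gave 0.66, 0.10, -0.07, 0.81 and 0.10. Its rise was 2.41 (SE 0.39, limma adjusted p = 0.000318), and it was 2.01 without control replicate 4. Cd9, a tetraspanin of the cell surface, was the exception among the 10. Its probe was detected in DEN/TAA replicates 1, 3 and 4 and in 0 of 5 controls, with intensities of 72.3, 48.9, 56.3, 78.0 and 41.2 units in DEN/TAA replicates 1 to 5 and 7.47 to 14.3 units in controls. After scaling, control replicate 5 lay above 3 of the 5 treated rats, and and no fold is given because the treated mean was below the floor of the control arrays. Its difference within the 3 slides was 0.88, 2.30 and -0.35. With no filter on dim probes Cd9 was tested, at 0.92 (limma adjusted p = 0.0640), and did not pass.

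Gpnmb, Pla2g7 and Lgals3 encode a vesicle protein, a secreted enzyme and a lectin. Gpnmb, a transmembrane glycoprotein of lysosome-related vesicles, gave -5.53, -7.29, -7.46, -4.98 and -5.57 in control replicates 1 to 5, none above background. DEN/TAA replicates 1 to 5 gave -0.76, -1.08, -1.07, -0.19 and -0.95, and the difference was 5.36 (SE 0.46, limma adjusted p = 3.38e-06). The lowest treated rat lay 3.90 above the highest control, and on the intensity scale the treated signals were 1808 to 4056 units against 13.1 to 73.4. Treated rats were close to each other in this gene (SD 0.37), while the wide control spread (SD 1.13) is that of undetected signal.

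Pla2g7 encodes the lipoprotein-associated phospholipase A2, an enzyme that macrophages secrete and that cleaves oxidised phospholipids and platelet-activating factor. Its signals were -6.89, -6.33, -6.24, -7.63 and -5.64 in control replicates 1 to 5, none above background, and 0.13, -0.78, 1.24, 0.09 and -1.47 in DEN/TAA replicates 1 to 5. The measured difference of 6.39 (SE 0.49, limma adjusted p = 1.79e-06) is taken against background signal. The bound of at least 28.7-fold holds in this scaling only, and in the authors' table the log2 difference was 3.31. Pla2g7 was also the least even of the set among treated rats (SD 1.03). DEN/TAA replicate 3 was the highest rat and DEN/TAA replicate 5 the lowest, 2.71 apart, while in Cd68 those same rats were 0.36 apart.

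Lgals3 encodes galectin-3, a lectin that binds galactose-bearing glycans and is secreted by macrophages. Control replicates 1 to 5 gave -2.09, -2.42, -2.30, -1.54 and -1.29, and in DEN/TAA replicates 1 to 5 the signals were 1.34, 1.61, 1.65, 2.06 and 1.96. The nearest rats of the groups were 2.63 apart. The rise was 3.65 (SE 0.24, limma adjusted p = 7.46e-07), which placed it 9th among the 3557 genes above background on all arrays. After scaling, DEN/TAA replicate 5, the lowest treated rat for Trem2, Tyrobp, Cd68, Aif1, Cd9 and Pla2g7, was the second highest for Lgals3.

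**Figure D2:**
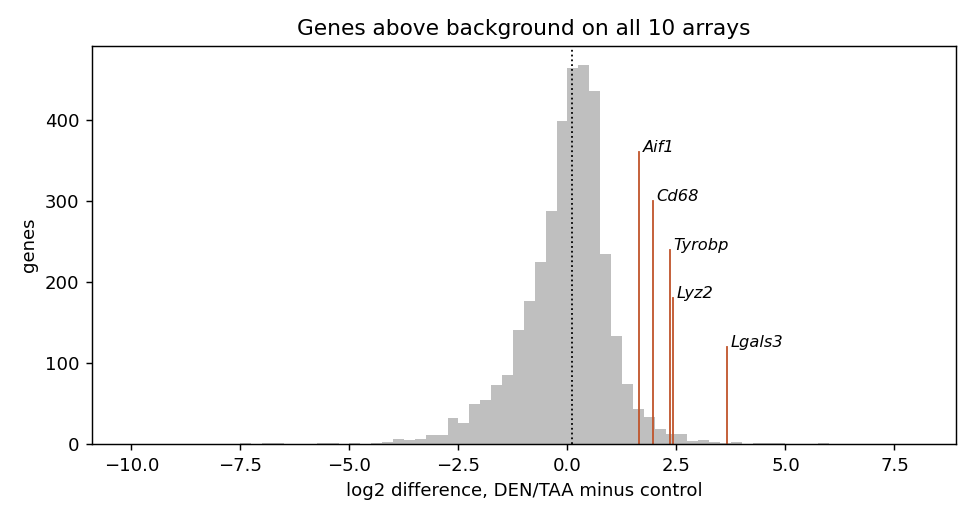
Histogram of the log2 difference (DEN/TAA minus control, horizontal axis) of the 3557 genes above background on all 10 arrays (genes per bin, vertical axis), with the 5 members measured on all arrays as labelled lines and the median of 0.10 dotted. The members lie in the right tail, from Aif1 at 1.65 to Lgals3 at 3.65.

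The members did not rise by equal amounts. Because 2 genes read on the same array share that array's brightness, the difference between their log2 signals does not depend on a factor that scales the array. Cd68 was taken as the reference, and 4 members were compared with it by two-sided exact permutation tests over every assignment of the 10 rats, whose smallest possible p is 0.00794, and p-values were adjusted over the 4. Relative to Cd68, Lgals3 was higher in DEN/TAA by 1.70 (exact permutation adjusted p = 0.0159), with values of -0.58 to 0.21 in control and 0.93 to 2.0 in DEN/TAA. Tyrobp was higher relative to Cd68 by 0.40 (exact permutation adjusted p = 0.0159), also without overlap. Aif1 was lower relative to Cd68 by 0.31 (difference -0.31, exact permutation adjusted p = 0.0423), with overlapping groups. That call was lost on leaving out any 1 of 7 rats (control replicates 1, 2, 4 and 5, DEN/TAA replicates 2, 4 and 5), with adjusted p from 0.0529 to 0.0847. Without the 2 dimmest control arrays the difference was -0.24 and did not pass either (exact permutation adjusted p = 0.214). Relative to Tyrobp, Aif1 was lower by 0.71 (difference -0.71, exact permutation adjusted p = 0.0106). Lyz2 was 0.46 higher relative to Cd68, a difference within the spread between rats (exact permutation adjusted p = 0.405). Its values relative to Cd68 ran from -1.94 to 0.51 in control and from -0.58 to 0.47 in DEN/TAA, and without control replicate 4 the difference was 0.084.

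**Figure D3:**
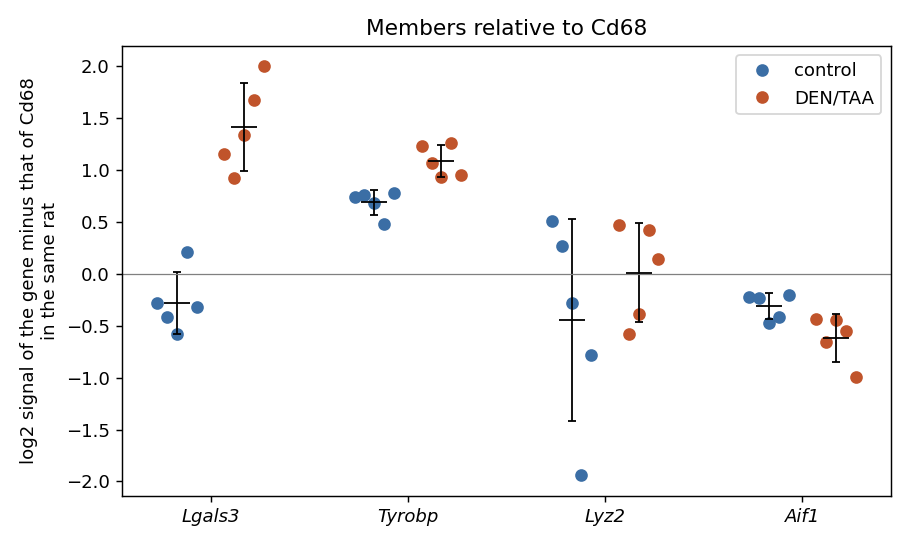
Log2 signal of each gene minus that of Cd68 in the same rat (vertical axis), 1 point per rat, with group mean and SD as bars. Absolute positions depend on the probes, so only the shift between control and DEN/TAA is read: 1.70 for Lgals3, 0.40 for Tyrobp, 0.46 for Lyz2 and -0.31 for Aif1.

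The same comparison was made with markers of the resident Kupffer cells and of leukocytes as a whole that were above background on all arrays, a choice made after the first results were seen. It covered 9 markers and 45 pairs, adjusted together. All 5 members rose more than Clec4f, a lectin specific to Kupffer cells that itself rose by 0.69 (SE 0.23, limma adjusted p = 0.0261). The excess over Clec4f was 0.96 for Aif1, 1.27 for Cd68, 1.67 for Tyrobp, 1.73 for Lyz2 and 2.97 for Lgals3 (exact permutation adjusted p = 0.0223 for each). The call for Aif1 was lost with quantile normalisation, with normexp and in the authors' table, and that for Lyz2 in the authors' table. Lgals3 rose more than 7 of the 9 markers, and its excess over the iron exporter Slc40a1 (1.05) and over Coro1a (0.93) did not pass (exact permutation adjusted p = 0.0571 for both). Tyrobp rose more than 5 markers, among them the complement genes C1qa and C1qb by 0.78 and 0.81 (exact permutation adjusted p = 0.0223 for both). Cd68 rose more than 4 and less than Coro1a, an actin-binding protein of leukocytes, but more than only 2 in the authors' table, and the call against Coro1a was lost there and with normexp. Aif1 rose less than 3 markers (Folr2, Slc40a1 and Coro1a), a count that was 2 with quantile normalisation, with normexp and in the authors' table, and its difference from C1qa was 0.07 (exact permutation adjusted p = 0.623).

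By profile over the 10 arrays, the genes nearest to Aif1 were C1qb, C1qa and Arhgdib, at root mean square distances of 0.14, 0.16 and 0.19 on the log2 scale after each gene was centred. Nearest to Cd68 were Fcgr1a (0.14), the cathepsin Ctss (0.16) and Bin1 (0.20). Tyrobp lay nearest to Cotl1 (0.22), Cd68 (0.24) and Folr2 (0.24). Lgals3 had more distant neighbours, Smoc2 (0.37), Txnrd1 (0.40) and Npdc1 (0.41), none of them a marker in the lists used here. Lyz2 was also further from its neighbours, Cd24 (0.40), Emp3 (0.49) and Coro1a (0.50). These distances were taken over the 3556 other genes above background on all arrays and include the shift between the groups.

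The size of the rise depended on scaling, and most for the members that controls did not express above background. Over 6 scalings the difference ran from 1.54 to 2.61 for Cd68, from 1.14 to 2.31 for Aif1, from 2.05 to 3.01 for Tyrobp, from 1.89 to 3.07 for Lyz2 and from 3.03 to 4.31 for Lgals3. It ran from 1.69 to 5.40 for Trem2, from 2.06 to 6.02 for Gpnmb, from 0.71 to 2.94 for Fcgr2a and from 3.31 to 7.05 for Pla2g7. Every one of these values was positive, and each passed the threshold apart from Fcgr2a with normexp. The median of all genes tested moved from -0.28 to 0.99 over the same scalings, and was 0.33 in the main one. Within the 3 slides the differences kept their sign for all 9 members tested, from 1.32 to 2.34 for Cd68, 1.64 to 2.74 for Tyrobp, 1.89 to 2.82 for Lyz2 and 3.37 to 4.16 for Lgals3. Trem2 ran from 3.80 to 5.74 within slides, Gpnmb from 4.33 to 6.84, Pla2g7 from 5.16 to 6.91 and Fcgr2a from 2.07 to 2.63.

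**Figure D4:**
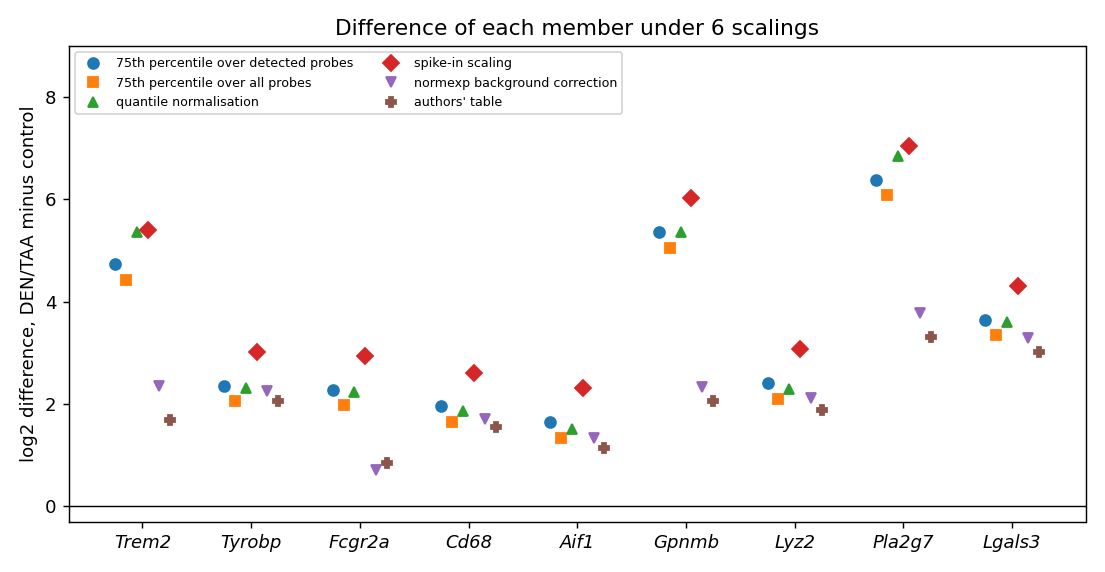
Log2 difference (DEN/TAA minus control, vertical axis) of the 9 members tested (horizontal axis) under 6 scalings, 1 symbol each. Normexp and the authors' table also differ in the handling of background. All symbols lie above 0, the spread is widest for Trem2, Gpnmb and Pla2g7, spike-in scaling gives the highest value for each gene, and the authors' table gives the lowest for 7 of the 9.

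Genes that act beside the members were taken from lists. Counts in each list stand beside shares of 39.2% higher and 16.3% lower over all genes tested. Among genes above background on all arrays the shares were 30.4% higher and 25.2% lower. No list was tested against these shares. In the list of DAP12 and Fc receptor signalling, 16 of 19 genes had a probe, 12 were tested and 11 rose, with a median difference of 1.49 against 0.33 for all genes tested, but 4 of the 11 were detected in no control. Of those 4, 1 had a treated mean below the control floor. Of the 7 detected on all arrays, 7 rose, with a median of 1.32 against 0.10. With normexp 6 genes of the list were higher and 1 was lower, with a median of 0.43. Fcer1g, the adaptor that pairs with Fc receptors as DAP12 does with TREM2, rose by 2.12 (SE 0.21, limma adjusted p = 8.38e-06). Syk, the kinase that binds phosphorylated DAP12, passed as higher, but it was detected in 0 of 5 controls and its bound was only 1.01-fold. Lyn rose by 0.59 and Fgr did not pass, at 0.06 (limma adjusted p = 0.820). The kinase Btk and the adaptor Lat2 were not above background on any array.

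Among 20 genes of lipid handling and matrix turnover in scar-associated macrophages, 16 were tested, 13 rose and 1 fell, with a median of 2.02. Only 5 were above background on all arrays, of which 4 rose and 1 fell, with a median of 0.70. With normexp 7 genes of the list were higher. Neither Emp1, a membrane protein, nor Lpl, lipoprotein lipase, was detected in controls. Emp1 was at least 6.58-fold higher in DEN/TAA (limma adjusted p = 2.35e-06) and Lpl at least 3.83-fold (limma adjusted p = 1.60e-06). Apoe, an apolipoprotein made by hepatocytes and macrophages, fell by 1.18 (SE 0.20, limma adjusted p = 0.000477), a call that neither quantile normalisation nor the authors' table gave. Of 12 genes of monocyte recruitment 4 were tested and 4 rose, of which only the adhesion molecule Icam1 was detected on all arrays (by 0.81, limma adjusted p = 0.00262). With normexp 2 were higher, and with no filter 4 were higher and 2 lower. The others included the chemokine Ccl2 (at least 2.23-fold, detected in no control) and the adhesion molecule Vcam1 (by 1.66, SE 0.22, and detected in 3 of 5 controls), with limma adjusted p = 5.92e-05 and 8.23e-05. The monocyte receptors Ccr2 and Cx3cr1 were not above background on any array.

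The list of the CSF1 axis and myeloid transcription factors was mixed, with 9 of 18 genes tested, 4 higher, 3 lower and a median of -0.09. Csf1r, the receptor that macrophages need for survival, rose by 1.62 (SE 0.21, limma adjusted p = 7.22e-05) and was detected in 1 of 5 controls. Runx1 was at least 2.10-fold higher (limma adjusted p = 0.000288). Cebpa fell by 1.75 (SE 0.30, limma adjusted p = 0.000489). Spi1, which encodes PU.1, and Mitf were not above background on any array. With normexp the list's higher calls were lost and 4 genes were lower.

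Markers of other cells moved with the members, and their part in the rises was not tested. Of all genes tested 39.2% were higher and 16.3% lower, and of those above background on all arrays 30.4% and 25.2%. The short marker lists below were not tested against these shares. Kupffer cell markers rose in 9 of 10 tested and in 6 of the 6 detected on all arrays, with a summed scaled signal of 4.10 to 8.05 in control and 10.3 to 19.1 in DEN/TAA rats, in multiples of each array's 75th percentile. Of the 9, 1 was detected in no control and had a treated mean below the control floor. Of the pan-leukocyte markers, 3 of the 3 detected on all arrays rose, and the sums were 0.67 to 1.11 and 2.34 to 3.24. A further 3 passed from undetected control signal, 2 of them (Lcp1 and Cd48) with a treated mean below the control floor. Of the neutrophil markers, which bear on Lyz2 and Tyrobp, only S100a8, S100a9 and Lcn2 were tested. These passed as higher, detected in 0, 2 and 2 of 5 controls. Their sums were 0.033 to 0.469 and 1.35 to 5.29. Lcn2 was the brightest of them in DEN/TAA, with a mean scaled log2 signal of 1.16 against -1.76 for S100a8 and -1.26 for S100a9. The sums leave out Elane, Cxcr2, Csf3r, Ngp and Camp, which were not above background on any array. Bile duct markers, which bear on Lgals3, had sums of 0.068 to 0.136 and 0.62 to 1.15 over 4 tested genes. Of these genes, 3 were detected in no control and passed the filter only through DEN/TAA, so the control sums hold undetected signal. Epcam, detected in 4 of 5 controls, rose by 2.67 (limma adjusted p = 3.38e-06), Krt19, Spp1 and Cldn4 shared with 9.96% of genes the pattern of detection in DEN/TAA alone, and Cftr was among those not above background on any array. Stellate cell markers rose in 6 of 8 tested and in 2 of the 4 detected on all arrays, with sums of 0.66 to 0.91 and 3.25 to 4.84, and Lum was not above background on any array. Of 6 platelet genes, which bear on Cd9, Pf4 was tested, detected in 1 of 5 controls, and rose, with values of 0.022 to 0.043 and 0.088 to 0.195, and Gp1ba, Ppbp and Treml1 were not above background on any array. Sums of T and NK cell markers were 0.062 to 0.147 and 0.200 to 0.270, but the 3 genes that passed (Cd3g, Zap70 and Nkg7) were detected in no control, and Cd3e, Cd2 and Lck were not above background on any array. Endothelial markers rose in 3 of 4 tested, with overlapping sums of 1.07 to 2.21 and 1.52 to 2.03. The only tested B cell gene was detected in no control, and of 2 dendritic cell markers 1 rose and 1 fell. With normexp fewer of these markers were higher: 7 of the Kupffer list, with 1 lower, 3 each of the pan-leukocyte, stellate and neutrophil lists, 2 of the bile duct list and 1 of the endothelial list, while the calls in the T and NK cell, B cell and platelet lists were lost. Hepatocyte markers fell in 9 of 10, with sums of 456 to 732 in control and 237 to 303 in DEN/TAA, and 9 of the 10 were above background on all arrays of both groups. That fall depended on scaling, with 4 lower and 1 higher under quantile normalisation, 2 lower and 1 higher under spike-in scaling, and 4 lower and 2 higher in the authors' table.

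**Figure D5:**
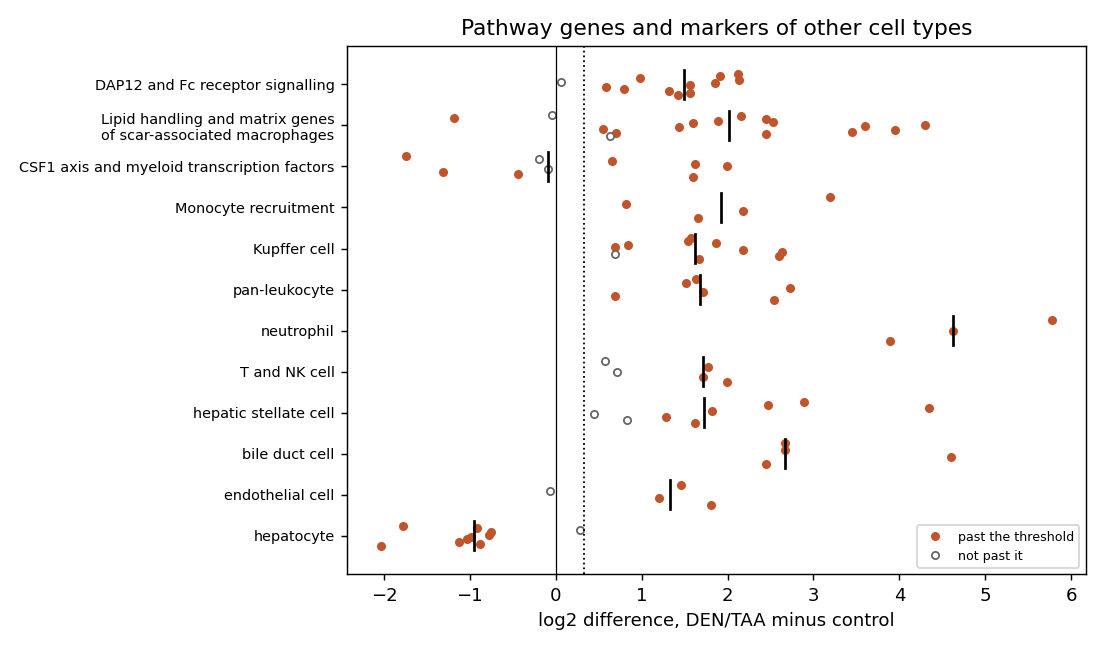
Log2 difference (DEN/TAA minus control, horizontal axis) of the tested genes of each list with at least 3 of them (rows), filled where past the threshold, with the list's median as a black bar and the median of all genes tested (0.33) dotted. Genes not above background in control are shown at their measured difference. In this scaling the lists of myeloid and other non-hepatocyte cells lie mostly to the right of the dotted line and the hepatocyte list to its left.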

How the data were processed

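RNA of 10 rat livers was hybridised to Agilent 4x44K arrays in 1 colour, 1 array per rat. The deposited scanner files hold spot intensity from Agilent Feature Extraction 11.5.1.1, with background removed by that program, per the file headers; the submitters' processing notes name version 15.5. The deposited table of log2 values made by the authors matched the rank order of median spot intensity (Spearman's rho of 1 on each array) with column medians of 8.59, so it is log2 signal of known direction without background subtraction; its making was not given in those sources.

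Control and outlier spots were left out, log2 signals of a probe averaged, and each array's 75th percentile over 6229 probes above background on all arrays subtracted. Probes above background on at least 5 arrays were kept, and a gene was its brightest such probe. Of 41012 probes, 17502 matched 1 rat gene of GRCr8 RefSeq, 0 several and 23510 none. No spot was saturated. Groups were compared with limma 3.58.1 in R 4.3.3 (lmFit, eBayes, 2 groups, no covariate). On simulated data of the same 6849 genes, 93% of 100 genes changed by 2 on the log2 scale and 56% of 100 changed by 1 were recovered, with 9 false calls. The simulation used independent normal noise, without differences in array brightness or a detection limit, and changed far fewer genes than were called here. These rates need not hold for the real arrays. The labels number replicates within a group, and the p-values measure the spread between these rats. Precision is limited by 5 arrays per group.

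Alternatives were other scalings, normexp with an offset of 50 (on median signal, the mean not being in the files used), the authors' table, other filters, blocks, priors, weights and leaving out each rat. Members, lists and tests were chosen with earlier results of these data known. Named genes are all members, up to 2 changed genes per pathway list in each direction by adjusted p, 3 nearest profiles per fully detected member, and markers; Syk, Lyn, Fgr, Btk, Lat2, Icam1, Lcp1, Cd48, Lcn2, Cldn4 and Nkg7, further list genes without a probe above background, and the reference markers were added after their values were seen. A planned search of member proteins for signalling motifs was not run, since protein sequences were not used here. Some genes that this rule names are not reported here.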

Additional observations from a re-analysis of the deposited data

Results flagged for a closer look

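Of 20 sets of 5 values (10 genes in each of the groups), 4 held a rat that stood apart from the other 4. For independent sets chance gives about 1 in 20. These sets share the same arrays and are not independent, so the count cannot be judged against that rate. Control replicate 5 was high for Cd68 (-0.96, the others -2.0 to -1.72), for Aif1 (-1.17, the others -2.24 to -2.02) and for Tyrobp (-0.19, the others -1.26 to -1.04). Its unscaled intensities of these genes were the lowest of the controls, at 394, 341 and 675 units, and its 75th percentile was 9.58 on the log2 scale against 10.79 to 11.20 in the others. Without it the rises were 2.13 for Cd68, 1.84 for Aif1 and 2.55 for Tyrobp, so it made them smaller. DEN/TAA replicate 5 was low for Aif1 (-1.04, the others -0.25 to 0.03), and without it Aif1 rose by 1.83.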

How the results depend on the processing

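The count of members higher in DEN/TAA was 9 in the fit reported and 8 or 9 under every alternative but the filter on all 10 arrays. That filter admits only 5 members, all 5 higher, and the count of member probes was 5 there too. Trem2, Gpnmb, Fcgr2a and Pla2g7 passed the main filter only through DEN/TAA, so their part of the count is no separate support. The share of all genes tested called higher was 39.2% in the fit reported. Over the alternatives it ran from 12.8% (normexp) to 64.8% (spike-in scaling). Every tested member difference was positive, the smallest being 0.63 (Aif1 within 1 slide), so 0 were lower by limma's adjusted or unadjusted p. The gene-wide counts moved more. Against 2685 higher and 1116 lower genes, there were 1613 higher when the percentile was taken over all probes, 4438 higher and 396 lower under spike-in scaling, 880 and 1947 with normexp, 5801 lower with no filter and 1154 higher with the filter on all 10 arrays, where fewer genes enter. Higher genes made up 70.6% of calls in the fit reported, 50.2% with the percentile over all probes, 58.8% with quantile normalisation, 91.8% with spike-in scaling, 31.1% with normexp, 60.8% in the authors' table, 30.9% with no filter and 55.0% with the filter on all 10 arrays. Leaving out 1 rat gave 2340 to 2685 higher and 988 to 1143 lower genes, and 9 higher members each time. The shift of Aif1 relative to Cd68 was -0.35 to -0.21 over these fits and -0.24 without the 2 dimmest control arrays. Raising undetected values to the floor, added after the data were seen, lowered Trem2 to 2.41, Gpnmb to 4.12, Fcgr2a to 1.73 and Pla2g7 to 4.84. All were still past the threshold, but this adds no support, since these genes passed the filter only through DEN/TAA.

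The median of the list of the CSF1 axis and myeloid factors changed sign with spike-in scaling (0.57), array weights (0.076), without the 2 dimmest control arrays (0.045) and, over single left-out rats (-0.34 to 0.26), without control replicate 1 (0.26) or 2 (0.16) or DEN/TAA replicate 5 (0.23). The T and NK cell median was -0.42 and the B cell value -0.094 with normexp. With no filter the medians were -0.64 for neutrophil, -1.24 for dendritic cell, -0.97 for B cell and -0.36 for platelet lists. The cause of these changes was not tested.

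Deviations of same-numbered rats had correlations of -0.22 to 0.20, and 3 of 5 rats were nearest their own number. With so few rats these values do not decide whether the numbers are pairs. The labels number replicates within a group and name no pairing, so the numbers were not taken as pairs. The replicate block gave 2681 higher and 1121 lower genes and 9 higher members, and changed no member's call.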
